A study of Mus musculus and Rattus norvegicus with 96 samples.

Results

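The liver of male F344 rats was compared between tissue fixed directly in formalin and embedded in paraffin (FFPE) and tissue that was frozen (FR). The labels of the rat liver libraries chose the members: 6 FFPE libraries, numbered 79 to 84, and 6 FR libraries, numbered 67 to 72, which were 12 of the 96 samples of the series. All animals were vehicle controls of an inbred laboratory strain, and neither the vehicle nor an age was given. The FFPE blocks had spent 18 to 24 h in 10% neutral buffered formalin before embedding. A further 6 libraries, FR > FFPE, numbered 73 to 78, came from liver that had been frozen first and then fixed in the same way. They are used here only as a reference, and whether they share animals with the other libraries was not given. The expression panel was the rat S1500+ TempO-Seq assay, which per the labels reads 2603 genes with 2636 detector pairs.

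Formalin joins RNA bases to each other and to protein through methylene bridges, and heat and storage break the chains into short pieces. TempO-Seq needs only a short intact stretch of each transcript: a pair of detector oligos anneals side by side, is ligated and is amplified, so the count of a gene reports the yield of its ligated pair. Counts of different genes therefore rank detector yield together with RNA amount, and levels are compared below within genes, or between classes of genes, only in that sense. Liver is dominated by hepatocytes, which secrete the plasma proteins and carry most of the enzymes of drug, lipid and bile acid metabolism.

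Preservation and the form of the input differed together, since the embedded tissue was used as a protease-digested lysate and the frozen samples are named as RNA in their titles, so the contributions of formalin, embedding and lysate cannot be told apart. No animal was stated to supply both an FFPE and an FR library, and p-values measure the spread between these samples. In bulk tissue, fewer cells of a type and less RNA per cell cannot be told apart. The liver label held in both groups, where Alb, which encodes serum albumin, was the highest gene of every rat liver library and took 13.7% to 17.7% of the counts in FR and 6.94% to 12.2% in FFPE. None of the 10 alveolar and airway markers searched for had a count in any rat liver library. Whether the panel reads these markers was not checked, so their absence is no check of the label.

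FFPE libraries held 139477 to 889125 counts and FR libraries 3040907 to 3970188, so that no FFPE library reached the depth of any FR library. The shallowest was FFPE 82. With every library thinned to its 139477 counts, the number of genes with at least 1 count was 2221 ± 70.9 (SD, n = 6) in FFPE and 1504 ± 24.2 (SD, n = 6) in FR, with no overlap (exact two-sided permutation test, p = 0.00216, the smallest value the design allows). Without thinning, FFPE still showed more genes, 2313 to 2403 against 2134 to 2238 in FR, from smaller totals. The 10 highest genes of each library took 36.2% ± 3.77 of the counts in FFPE and 48.5% ± 1.91 in FR (SD, n = 6 each; exact two-sided permutation test, p = 0.00216). Counts were thus spread over more genes in FFPE than in FR, and FR > FFPE lay between them in genes detected at equal depth, at 1803 to 2039.

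**Figure D1:**
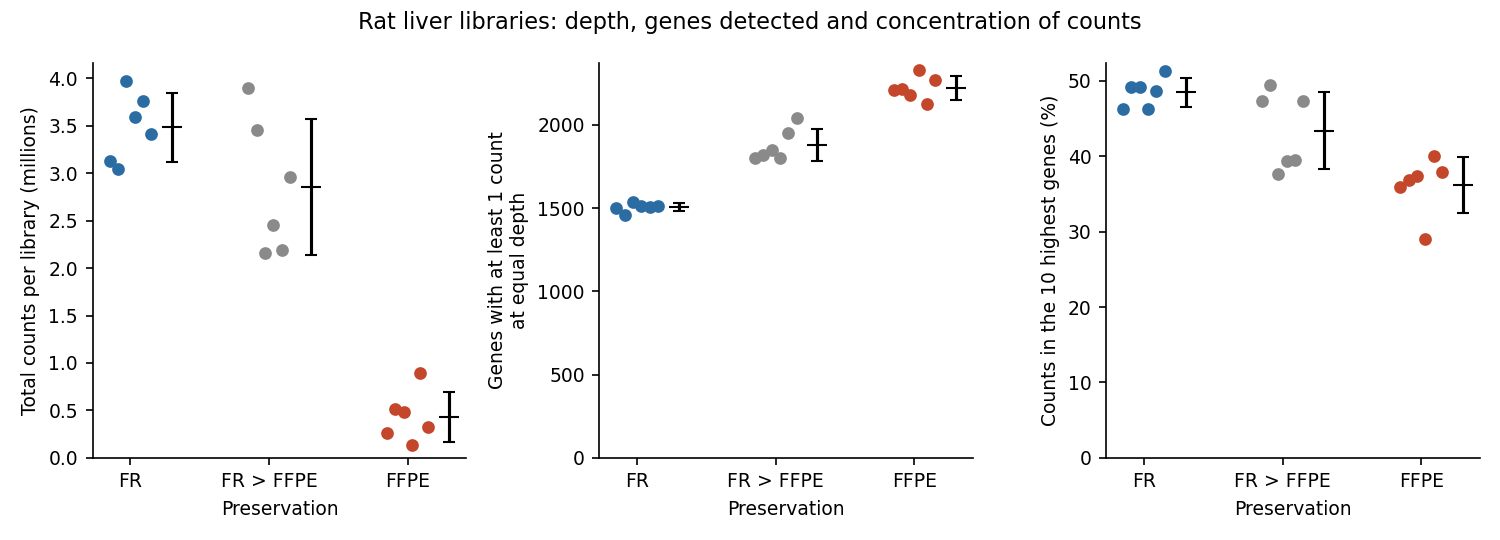
Total counts, genes with at least 1 count after thinning every library to 139477 counts, and the percentage of counts in the 10 highest genes of each library, for 6 FR, 6 FR > FFPE and 6 FFPE rat liver libraries; points are libraries, and the bars give the mean and SD. FFPE libraries had the lowest totals, the most genes at equal depth and a smaller share in their 10 highest genes than FR libraries.

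Between FFPE and FR, 1467 genes were differentially expressed (DEGs), of which 911 had the higher and 556 the lower level in FFPE, with at least a 2-fold difference and an adjusted p below 0.05 (edgeR with TMM, which rescales library sizes by a trimmed mean of the ratios of genes; a scaled CPM is a count relative to the TMM-adjusted library size). The background of called genes was therefore 64.3% in either direction, 39.9% higher and 24.4% lower, and counts of members below are to be read against these shares. Over all genes tested, the log2 fold change had a median of 0.35. That median depended on the scaling: total count scaling moved it to 1.97, and it then gave 1542 genes higher and 72 lower, while DESeq2 size factors gave 960 and 502 and upper quartile scaling 1116 and 318. The share of DEGs that were lower in FFPE was 37.9% with TMM, 34.3% with DESeq2 size factors, 22.2% with upper quartile scaling and 4.46% with total count. The TMM factors were 0.559 to 0.605 in FR and 1.35 to 2.84 in FFPE, the highest being that of FFPE 82. Directions below are those under TMM unless stated, and without FFPE 82 the number of DEGs was 1427.

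The fold change followed the level of the gene in frozen liver. Of 353 genes under 1 scaled CPM in FR, all 353 were higher in FFPE, with a median log2 fold change of 5.66. These genes went from a median of 0.169 scaled CPM in FR to 11.6 in FFPE, where the central 50% of them lay between 8.67 and 17.4. Genes of this class could enter the test only through the embedded libraries, 90 of them having no FR count at all, so their number and their median are fixed by the filter and are not a result, and the same holds in part for genes at 1 to 10. The median log2 fold change stepped down to 1.77 for 311 genes at 3 to 10 scaled CPM, 0.54 for 356 genes at 10 to 30 and -0.28 for 390 genes at 30 to 100. Among the 174 genes over 1000 scaled CPM in FR, 144 were lower in FFPE, none was higher, and the median was -1.82. Under total count scaling the median was 2.20 for the genes at 10 to 30 and -0.20 for those over 1000, and without FFPE 82 these medians were 0.50 and -1.71.

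**Figure D2:**
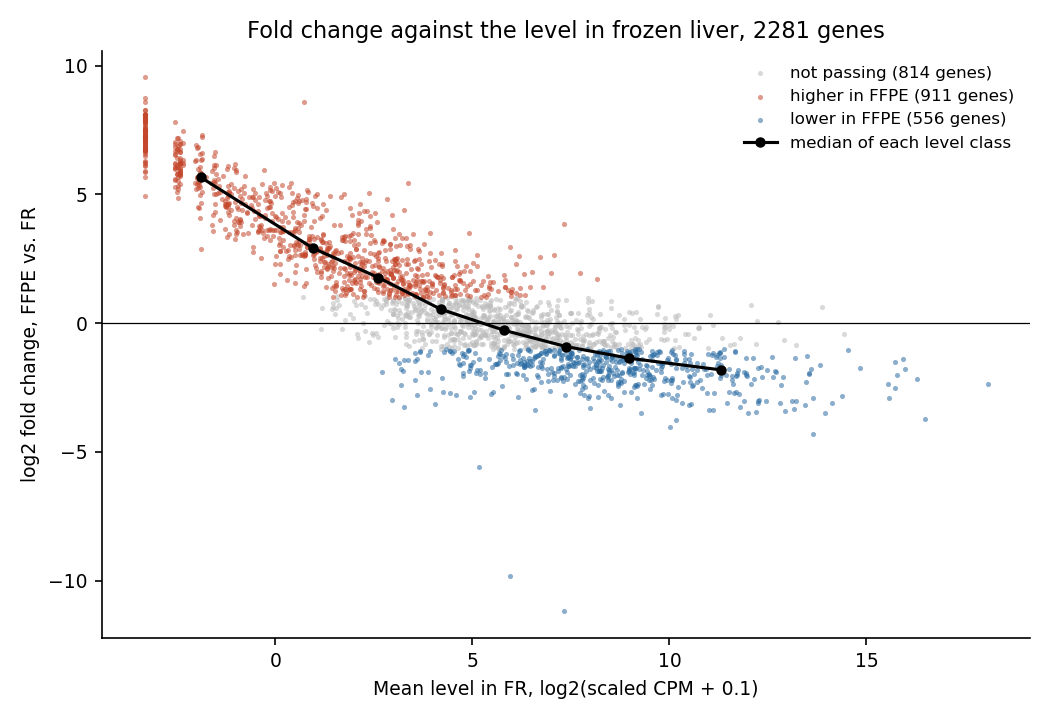
log2 fold change of FFPE vs. FR against the mean level in FR, as log2(scaled CPM + 0.1), for the genes tested; points are genes, coloured by whether they passed the threshold, and the line joins the medians of 8 level classes. Genes that were low in FR were higher in FFPE and genes that were high in FR were lower. The highest point clear of the band is LOC100360856 and the 2 lowest points are LOC103694855 and LOC103694857.

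Over the genes tested, the range of levels was narrower in FFPE. Genes low in FR entered in part only through the embedded libraries, so the lower end of this range is in part set by the filter. The 10th percentile of gene levels was 0.334 scaled CPM in FR and 9.06 in FFPE, and the 90th percentile 667 and 302. The ratio of the 90th to the 10th percentile of gene levels was 1996 in FR, 120.4 in FR > FFPE and 33.3 in FFPE. The 841 tested genes under 10 scaled CPM in FR took 0.123% to 0.149% of the counts of the FR libraries and 1.70% to 7.28% of the FFPE libraries. They were picked for a low FR level after that filter, so a larger share in FFPE is in part built in. Within FFPE, this share was smallest in FFPE 83, which held the most counts, and largest in FFPE 82, which held the fewest. With all libraries thinned to the depth of FFPE 82, 967 genes could be tested and 433 were DEGs (44.8%), 256 higher and 177 lower. Of the genes at 10 to 30 and 30 to 100 scaled CPM in FR, 53 of 356 and 204 of 390 could be tested at that depth, so nothing is read from their fold changes. The higher classes were kept nearly whole, and their medians were 0.006 for 290 genes at 100 to 300, -0.46 for 222 genes at 300 to 1000 and -0.94 for the 174 genes over 1000. Before thinning, the median gene of the 841 under 10 scaled CPM in FR had 5 to 12 counts per FFPE library, so single low genes rest on few counts. Replicates stayed closer in FR than in FFPE, with pairwise correlations of log2 levels across genes of 0.987 to 0.991 and 0.874 to 0.965, and a biological coefficient of variation of 17% and 28%. FFPE libraries were also shallower, and these correlations were not compared at equal depth. In FR > FFPE the correlations were 0.924 to 0.981 and the coefficient of variation was 36.8%, so a wider spread than in FR was not particular to FFPE.

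Levels in FR enter both the classes and the fold change. Rat genes were therefore also classed by their level in frozen mouse liver from the RNA-seq study of the series. This took all rat genes with a count and a matching symbol, in a fit without the filter. Over the 2652 genes of that fit, 958 were higher and 589 lower. The classes were not run under total count scaling. The 241 genes under 0.1 CPM in mouse liver had a median rat log2 fold change of 5.48, and 208 of them were higher in rat FFPE. Their median level was 0.100 scaled CPM in rat FR and 11 in rat FFPE. Genes this low in rat FR can hold a count only through the embedded libraries, so the values of this class are in part built in. The median was -0.10 for 867 genes at 10 to 100 CPM and -1.78 for 52 genes over 1000 CPM. From 10 to 100 CPM upward, the downward course thus appeared with a level that the rat libraries did not supply.

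**Figure D3:**
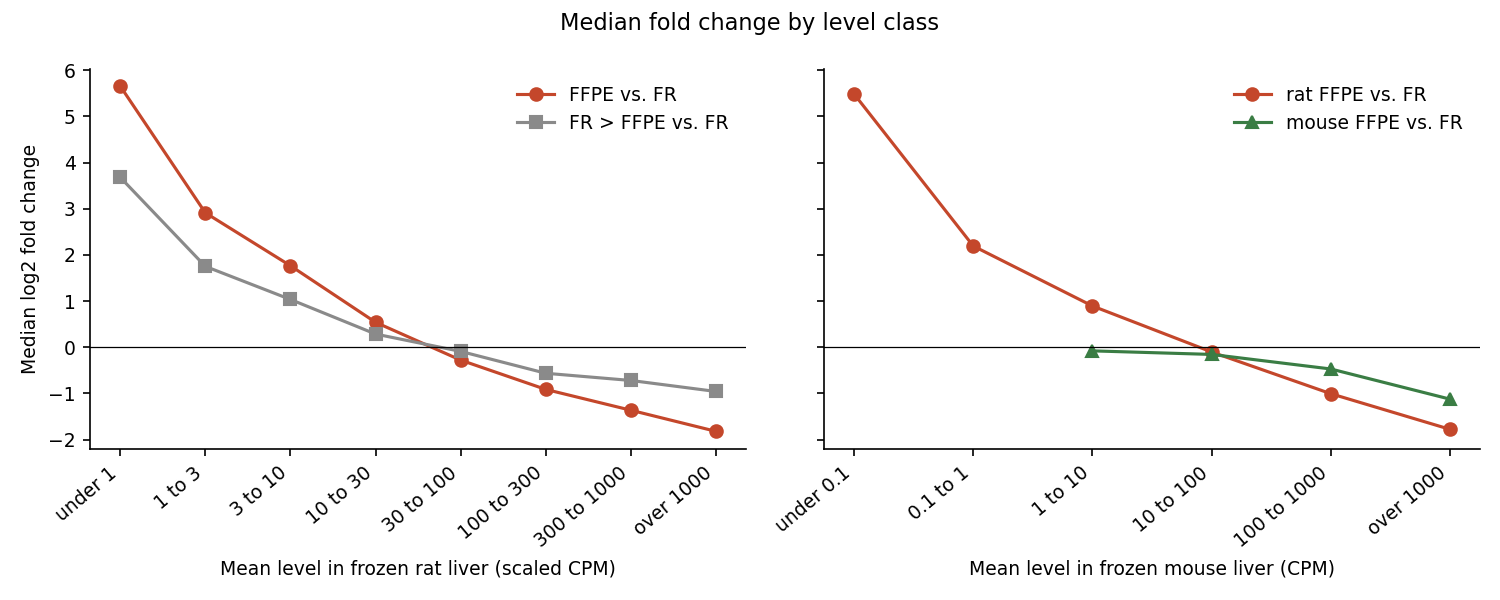
Median log2 fold change by level class: on the left by the level in frozen rat liver, for FFPE vs. FR and FR > FFPE vs. FR, which share the FR libraries; on the right by the level in frozen mouse liver, for rat and mouse FFPE vs. FR (mouse classes with at least 20 genes). From the class at 10 to 30 scaled CPM to that over 1000, the medians went from 0.54 to -1.82 in FFPE vs. FR and from 0.29 to -0.96 in FR > FFPE vs. FR. The lowest classes hold genes that passed the filter through the embedded libraries.

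The largest falls were taken among genes at 50 scaled CPM or more in either group whose libraries did not overlap, a state that 64.1% of all tested genes shared. Changes of single genes are log2 fold changes of FFPE vs. FR ± SE, negative where FFPE was lower. The largest fitted fall with counts in both groups was that of Hbb, a hemoglobin beta chain (chromosome 1, 168971274 to 168972726), whose lowest, median and highest values were 6747, 11214 and 24219 scaled CPM in FR and 515, 626 and 856 scaled CPM in FFPE (log2 fold change -4.30 ± 0.36 SE, adjusted p = 1.08e-10). Every FFPE library lay below every FR library, and FR itself spanned a wide range. LOC103694855 and LOC103694857, which lie beside Hbb on chromosome 1 (168945449 to 168965567 and 168957460 to 168958837), had 1980 and 763 counts over the FR libraries and none in any FFPE library. Against 3 counts over the FFPE group, they were at least 236-fold and 90.9-fold lower, and estimated counts of such neighbouring copies can be split by the counting.

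**Figure D4:**
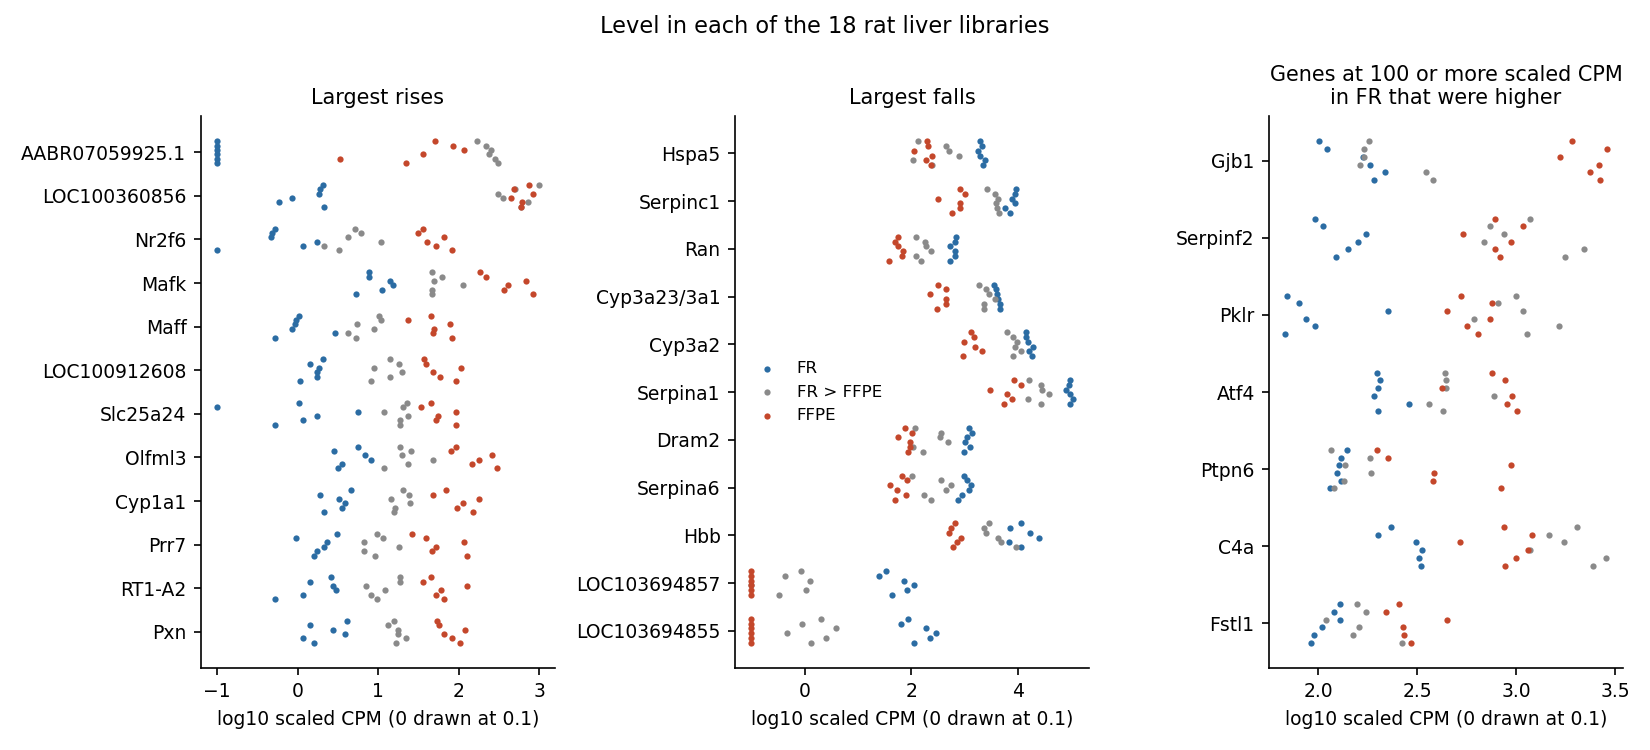
Levels of the 12 largest rises, 11 of the 12 largest falls and the 7 genes at 100 scaled CPM or more in FR that were higher in FFPE, as log10 scaled CPM in each of 18 libraries, with 0 drawn at 0.1; points are libraries, coloured by preservation. FR and FFPE points did not overlap for any gene of the first 2 panels and the FR > FFPE means lay between those of the other groups for all genes of those 2 panels except AABR07059925.1, which was highest in FR > FFPE.

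Serpina1, the alpha-1 antitrypsin of plasma, was the second highest gene of FR and had 78904, 93280 and 104250 scaled CPM in FR and 2961, 6944 and 11197 scaled CPM in FFPE (log2 fold change -3.72 ± 0.29 SE, adjusted p = 4.08e-11). Its share of all counts was 5.32% over the FR libraries and 1.301% over the FFPE libraries. Serpina6, the corticosteroid-binding globulin, had 741, 1026 and 1308 scaled CPM in FR and 40.4, 60.2 and 82.5 scaled CPM in FFPE (log2 fold change -4.03 ± 0.33 SE, adjusted p = 7.98e-11). Under total count scaling, Serpina1 and Serpina6 were also lower, with log2 fold changes of -2.15 and -2.44. Serpinc1, antithrombin, fell and had 5746 to 9011 in FR and 313 to 1018 in FFPE scaled CPM (log2 fold change -3.42 ± 0.24). Cyp3a2 and Cyp3a23/3a1, steroid and drug hydroxylases whose gene models overlap on chromosome 12, fell (log2 fold changes -3.51 and -3.51), and reads of these paralogs may have been shared between them. Proteins of the cell interior completed the set: Hspa5, the main chaperone of the endoplasmic reticulum (-3.39 ± 0.35), Ran, the GTPase of nuclear transport (-3.48 ± 0.21), and Dram2, a membrane protein linked to autophagy (-3.75 ± 0.32). All 11 of these falls passed the threshold in the same direction under total count scaling.

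The 12 largest rises had FR means of at most 10.2 scaled CPM. Genes this low in FR entered the test in part only through the embedded libraries, so their p-values are no independent support for a rise. Over all genes tested, the median log2 fold change was 5.66 under 1 scaled CPM in FR, 2.91 at 1 to 3 and 1.77 at 3 to 10. LOC100360856 (chromosome 9, 8349033 to 8442299) had 0.586, 1.88 and 2.11 scaled CPM in FR and 452, 608 and 836 scaled CPM in FFPE (log2 fold change 8.57 ± 0.37 SE, adjusted p = 1.56e-15), and its mean in FR > FFPE was 576. AABR07059925.1 had no FR count and 221 counts over the FFPE libraries, of which single libraries held 3 to 103, at least 206-fold higher against 3 counts over the FR group. Both are gene models without a named protein in the table, and reads from similar sequences elsewhere cannot be told apart from theirs.

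Mafk and Maff, small Maf transcription factors that pair with Nrf2 and its relatives, rose with 5.28, 9.45 and 15.5 scaled CPM in FR and 184, 392 and 837 scaled CPM in FFPE for Mafk (log2 fold change 5.44 ± 0.39 SE, adjusted p = 1.25e-11). Maff, which is also an early stress-induced gene, had 0.528, 0.938 and 2.93 scaled CPM in FR and 23.3, 49 and 82.8 scaled CPM in FFPE (log2 fold change 5.42 ± 0.40, adjusted p = 1.95e-11, edgeR). The groups were apart for both genes. Maff had 1 to 5 counts in each FR library, so it passed the filter through the embedded libraries. Nr2f6, an orphan nuclear receptor (5.95 ± 0.45), Cyp1a1, the hydrocarbon-inducible P450 (5.02 ± 0.32), Slc25a24, a mitochondrial ATP-Mg carrier (5.08 ± 0.42), Pxn, the focal adhesion protein paxillin (4.92 ± 0.29), and RT1-A2, a class I histocompatibility gene with close copies (4.93 ± 0.38), rose by similar amounts, as did Olfml3, Prr7 and LOC100912608 at 5.06, 4.99 and 5.16. Cyp1a1, for example, had 1.90, 3.38 and 4.66 scaled CPM in FR and 48.3, 104 and 179 scaled CPM in FFPE. All 12 rises passed the threshold in the same direction under total count scaling. That scaling moved the median over all genes from 0.35 to 1.97, so this outcome was settled in advance and is no check of a rise.

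Among the 694 genes at 100 scaled CPM or more in FR, 432 were lower and 7 were higher in FFPE. These 7 were chosen after their values were seen. Gjb1, the gap junction protein connexin 32 of hepatocytes (chromosome X, 71272042 to 71279978), had 100.4, 175 and 216 scaled CPM in FR and 1661, 2500.4 and 2866 scaled CPM in FFPE (log2 fold change 3.86 ± 0.27 SE, adjusted p = 9.32e-12). The 6 FFPE libraries held 658 to 3441 counts of it against 194 to 424 in the deeper FR libraries, so the rise was present in raw counts, before any scaling. In FR > FFPE its mean was 235 scaled CPM, and FFPE vs. FR > FFPE gave a log2 fold change of 3.32 ± 0.26 (adjusted p = 1.04e-09, edgeR). Ptpn6, a phosphatase of blood cells, was likewise higher in FFPE than in FR (1.94 ± 0.29) and than in FR > FFPE (1.75 ± 0.29), and its FFPE libraries ranged from 197 to 942. Atf4, the transcription factor of amino acid and endoplasmic reticulum stress, had 191, 200.3 and 287 scaled CPM in FR and 424, 891 and 1012 scaled CPM in FFPE (log2 fold change 1.94 ± 0.21 SE, adjusted p = 1.03e-08), and Fstl1, a secreted glycoprotein of mesenchymal cells, rose by 1.39 log2 units. Pklr, liver pyruvate kinase (2.55 ± 0.28), Serpinf2, the plasmin inhibitor (2.63 ± 0.27), and C4a, a complement component with a close copy (1.70 ± 0.23), were higher in FFPE than in FR, and their FR > FFPE means of 1046, 1241 and 1947 scaled CPM were above their FFPE means of 612, 825 and 935. Of the 3, C4a passed the threshold in FFPE vs. FR > FFPE (-1.06 ± 0.22). All 7 passed in the same direction under each of the 21 other settings run, the other scalings and thinning included. The other scalings moved fold changes upward in FFPE, so they are no check of a rise.

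In the list of secreted plasma and lipid carrier proteins, 0 of 16 measured members rose, 12 fell and 4 did not pass (median -1.84, and 3 higher and 3 lower with total count). The median over all genes tested was 0.35, and medians of lists below are set against it. They are not adjusted for the level in FR, with which fold changes went. Fold changes of members less the median of their level class had list medians from -0.45 in this list to 1.46 in histones. That measure was 0.02 in conjugation enzymes, 0.04 in complement and coagulation and -0.007 in fatty acid and sterol synthesis. The 10 genes with the most counts in FR all belonged to blood plasma and all fell. Alb had 225655, 284678 and 306720 scaled CPM in FR and 24446, 53504 and 90473 scaled CPM in FFPE (log2 fold change -2.36 ± 0.26 SE, adjusted p = 1.39e-08). Gc, the vitamin D carrier, and Fetub, fetuin B, fell (log2 fold changes -2.91 and -2.53). Apoh, which binds phospholipids, and the lipoprotein genes Apoa1 and Apoc1 fell (log2 fold changes -2.38, -2.17 and -1.53). C3, the central complement protein, and the fibrinogen chains Fgg and Fga fell (log2 fold changes -1.78, -2.0 and -1.40), while Fga and Apoc1 had log2 fold changes of 0.19 and 0.08 under total count scaling. Of the falls named here and below, those of Calr, Cat, Dnajc15, Eif2s1, Esr1, Pygl, Rb1, Rpl6 and Xiap likewise turned positive under that scaling.

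Of the complement and coagulation genes, 8 of 37 measured members rose, 20 fell and 9 did not pass (median -1.29, and 13 higher and 3 lower with total count). The falls were led by Serpinc1, Cfi, which cleaves C3b (-3.12 ± 0.28), and Serpind1, heparin cofactor II (-3.01 ± 0.23). The rises included C4b (4.08 ± 0.61) and C1r, the protease of the first complement component, which had 6.21, 8.99 and 16.7 scaled CPM in FR and 63.1, 97.2 and 145 scaled CPM in FFPE (3.29 ± 0.30). C4b held 5 counts over the FR and 34 over the FFPE libraries. Its gene model lies within that of C4a, so reads may have been shared between them. Among acute-phase genes, 2 of 14 measured members rose, 8 fell and 4 did not pass (median -1.44, and 5 higher and 2 lower with total count). Cp, the copper carrier ceruloplasmin, and Crp, C-reactive protein, fell (log2 fold changes -3.36 and -3.17), as did Fn1, fibronectin (-2.29 ± 0.20), and Orm1, the member with the most counts (-1.79 ± 0.32). The 2 members that rose, Lcn2, an iron-binding lipocalin (0 to 1.55 in FR and 8.95 to 25.9 in FFPE), and Socs3, an inhibitor of cytokine signalling (3.17 to 8.80 in FR and 13.4 to 37.9 in FFPE), were low in FR.

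**Figure D5:**
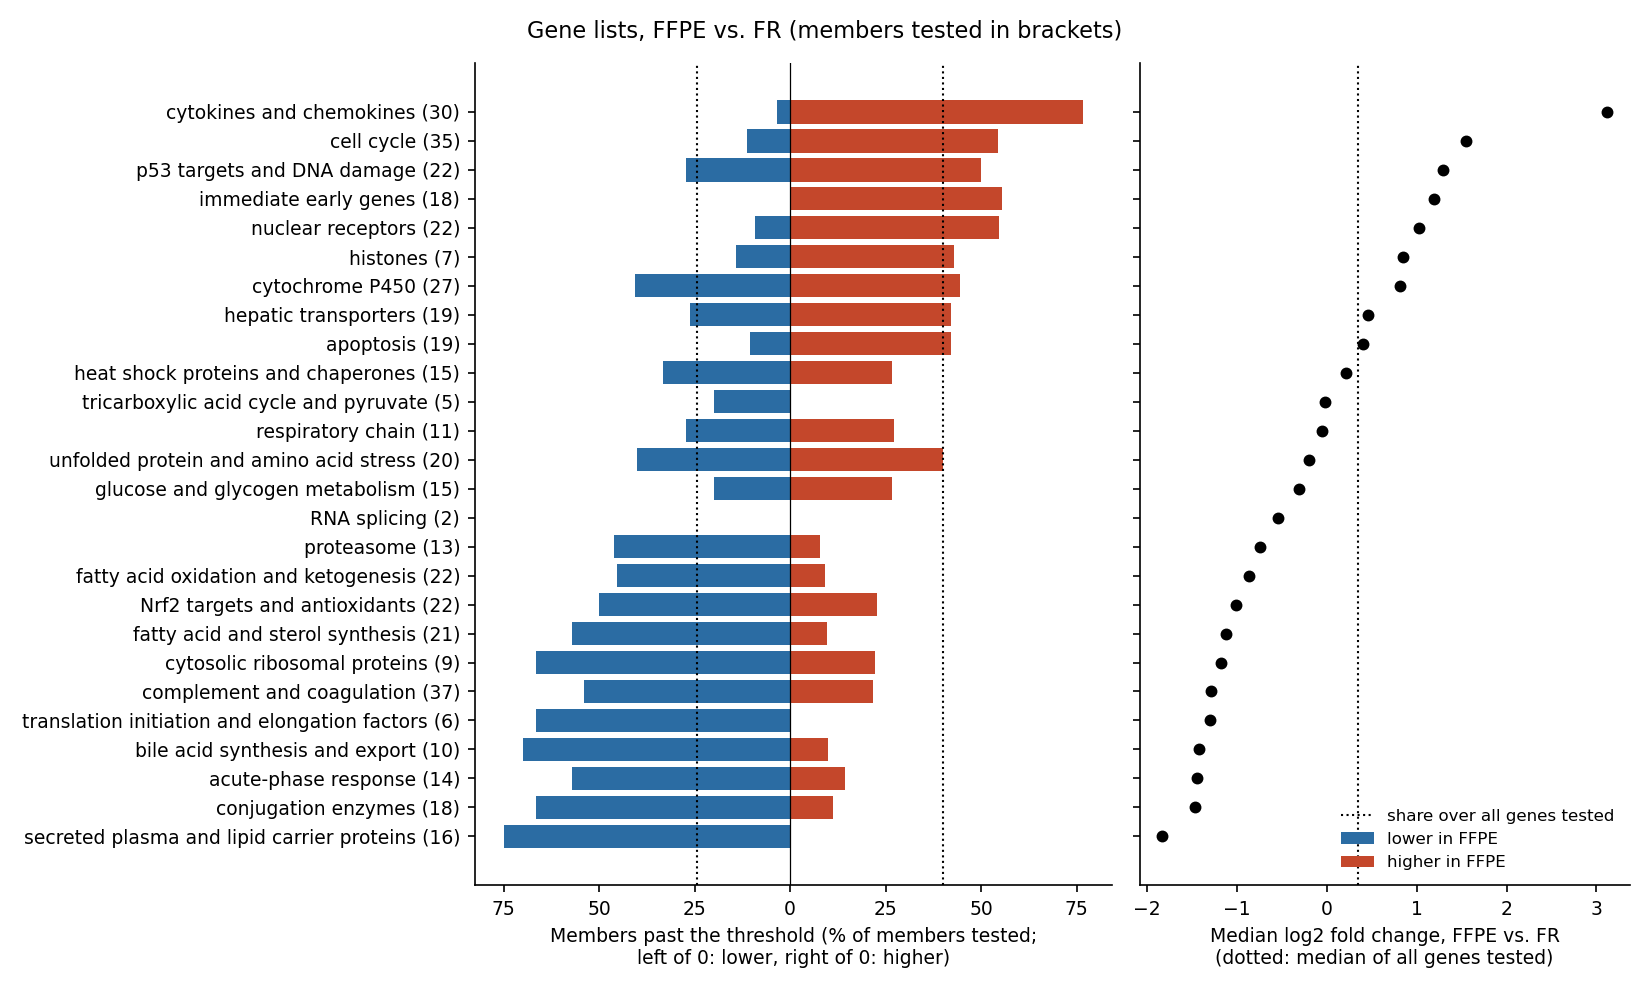
Gene lists ordered by the median log2 fold change of FFPE vs. FR, with members tested in brackets; the left panel gives the percentage of members lower (left of 0) and higher (right of 0) in FFPE, the right panel the median, and dotted lines give the shares and the median over all genes tested. Plasma protein and conjugation lists lay at the low end and cytokines and chemokines at the high end. The medians are not adjusted for level: the median FR level of these 3 lists was 10402, 867 and 2.02 scaled CPM.

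Of the cytochrome P450 genes, 12 of 27 measured members rose, 11 fell and 4 did not pass (median 0.81, and 15 higher and 3 lower with total count). The largest falls were those of Cyp3a2, Cyp2b3 (-3.01 ± 0.23) and Cyp2c11, the male-specific form (-2.76 ± 0.25). Among the largest rises, Cyp2w1 and Cyp11b2, aldosterone synthase, had no FR count and were at least 101-fold and 27.1-fold higher, and Cyp24a1, the vitamin D 24-hydroxylase, had 1 count over the FR and 68 over the FFPE libraries (scaled ratio 190.2, interval 33 to 7623). Such ratios of pooled counts carry exact 95% intervals for counting error. Of the conjugation enzymes, 2 of 18 measured members rose, 12 fell and 4 did not pass (median -1.46, and 6 higher and 2 lower with total count). The sulfotransferases Sult1b1 and Sult1c3 and the glucuronosyltransferase Ugt2b10 fell (log2 fold changes -3.05, -2.26 and -3.17). Gstp1 and Nat2 rose from FR means below 10 scaled CPM, by 2.21 and 1.94.

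Of the hepatic transporters, 8 of 19 measured members rose, 5 fell and 6 did not pass (median 0.46, and 12 higher and 3 lower with total count). Slc10a1, the sodium-dependent bile acid carrier, had 1955, 2231 and 2358 scaled CPM in FR and 116, 212 and 303 scaled CPM in FFPE (log2 fold change -3.38 ± 0.25 SE, adjusted p = 2.64e-11), and Slco1a1 and Slco1b2, organic anion carriers, fell (log2 fold changes -3.13 and -2.97). Abcg8, the sterol exporter, with 1 count over the FR and 119 over the FFPE libraries (scaled ratio 333, interval 58.6 to 13258), Slc22a6, an anion carrier of kidney (0 to 0.528 in FR and 13.4 to 48 in FFPE), and Slco1c1, a thyroid hormone carrier with no FR count, rose. In bile acid synthesis and export, 1 of 10 measured members rose, 7 fell and 2 did not pass (median -1.42, and 2 higher and 2 lower with total count). Akr1d1, the bile acid 5-beta-reductase, fell (log2 fold change -2.02), and the only rise was that of Cyp7a1, the rate-limiting enzyme of bile acid synthesis, with 0.528, 1.34 and 2.93 scaled CPM in FR and 20.8, 49.1 and 78.3 scaled CPM in FFPE (log2 fold change 4.83 ± 0.39 SE, adjusted p = 6.95e-11). Each FR library held 1 to 5 counts of Cyp7a1, so its level in frozen liver rests on few counts. It passed the filter through the embedded libraries, and the median over all genes at 1 to 3 scaled CPM in FR was 2.91.

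Under TMM, more genes of fatty acid metabolism fell than rose. Of fatty acid oxidation and ketogenesis genes, 2 of 22 measured members rose, 10 fell and 10 did not pass (median -0.87, and 10 higher and 2 lower with total count). Acaa2, Hadh and Echs1 of mitochondrial beta-oxidation fell (log2 fold changes -2.28, -2.36 and -2.81). Echs1 held only 7 counts over the FFPE libraries, 0 to 2 in each, so its fall rests on few counts. The rises were Acot1, an acyl-CoA thioesterase (4.61 ± 0.68), and Ppara, the receptor that drives these genes (12.9 to 23.6 in FR and 33.1 to 60.6 in FFPE). In fatty acid and sterol synthesis, 2 of 21 measured members rose, 12 fell and 7 did not pass (median -1.12, and 7 higher and 2 lower with total count). Insig1, which retains the sterol sensor, Me1, malic enzyme, and Sqle, squalene epoxidase, fell (log2 fold changes -2.70, -2.66 and -2.20), and Hmgcs1 of the mevalonate pathway rose by 2.71 from an FR mean below 10 scaled CPM.

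In glucose and glycogen metabolism, 4 of 15 measured members rose, 3 fell and 8 did not pass (median -0.31, and 9 higher and 0 lower with total count). Pgam1 and Pygl, liver glycogen phosphorylase, fell (log2 fold changes -2.21 and -1.53). Pklr, Hk1 and Pfkl, which catalyse the irreversible steps of glycolysis, rose by 2.55, 2.37 and 1.88. Of the respiratory chain genes, 3 of 11 measured members rose, 3 fell and 5 did not pass (median -0.06, and 7 higher and 1 lower with total count), with falls of Atp5c1 of ATP synthase, Ndufb8 of complex I and Sdhb of complex II (log2 fold changes -3.09, -2.56 and -2.04). The rises were Cox8b, a muscle form without FR counts and at least 68.1-fold higher, Atp5s (2.81 ± 0.42) and Ndufaf4, an assembly factor (1.60 ± 0.21). Of 5 tricarboxylic acid cycle and pyruvate genes, 1 passed, Idh3a (-2.06 ± 0.17), and Dld, with the most counts, had 769, 832 and 1286 scaled CPM in FR and 512, 830.3 and 1019.6 scaled CPM in FFPE (log2 fold change -0.20 ± 0.21, adjusted p = 0.398, edgeR).

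Of the cytosolic ribosomal proteins, 2 of 9 measured members rose, 6 fell and 1 did not pass (median -1.18, and 3 higher and 0 lower with total count). Rps6 had 3353, 3915 and 4421 scaled CPM in FR and 616, 1037 and 1338 scaled CPM in FFPE (log2 fold change -1.92 ± 0.21 SE, adjusted p = 1.27e-08), and Rpl19 and Rpl6 fell (log2 fold changes -2.10 and -1.57). Rpl3l, a muscle paralog of Rpl3 with no FR count, was at least 77.4-fold higher, and Rps27l, a p53-regulated paralog, rose by 1.55. Of 6 translation factors, 4 fell and none rose (median -1.30, and 1 higher and 0 lower with total count), led by Eif4e, which binds the cap (-2.03 ± 0.27), Eif2ak2, the RNA-activated kinase (-1.96 ± 0.24), and Eif2s1 (-1.41 ± 0.16). Of the proteasome genes, 1 of 13 measured members rose, 6 fell and 6 did not pass (median -0.75, and 6 higher and 0 lower with total count). Psmd6, Psma5 and the assembly chaperone Psmg1 fell (log2 fold changes -2.39, -2.20 and -2.0), the inhibitor subunit Psmf1 rose by 2.21, and Psme1, with the most counts, overlapped between groups at 862 to 1429 in FR and 654 to 1227 in FFPE scaled CPM. Neither of the 2 splicing genes passed, Srsf1 having a log2 fold change of -0.74 ± 0.22.

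Stress genes did not move as 1 block. Of the unfolded protein and amino acid stress genes, 8 of 20 measured members rose, 8 fell and 4 did not pass (median -0.20, and 11 higher and 2 lower with total count). The falls included Hspa5, Sel1l of protein degradation at the endoplasmic reticulum (-3.19 ± 0.33), Atf6, a membrane-bound sensor (-2.01 ± 0.40), and Calr, calreticulin (-1.14 ± 0.23), whose call ended without FFPE 82. The rises included Atf5, a transcription factor downstream of Atf4, with 47.5, 53.9 and 98.5 scaled CPM in FR and 346, 463 and 647 scaled CPM in FFPE (log2 fold change 2.97 ± 0.25 SE, adjusted p = 1.51e-10), Ppp1r15a, which reverses eIF2 phosphorylation (9.51 to 19.2 in FR and 44.8 to 101 in FFPE; 2.19 ± 0.28), and Chac1, which degrades glutathione, with 3 counts over the FR and 46 over the FFPE libraries (scaled ratio 42.9, interval 13.8 to 216). In mouse, Atf5 rose (log2 fold change 1.45), while Atf4, Ppp1r15a and Chac1 had 0.23, 0.75 and -0.0014 and did not pass. Of the heat shock proteins and chaperones, 4 of 15 measured members rose, 5 fell and 6 did not pass (median 0.22, and 9 higher and 1 lower with total count), with Hspd1 and Dnajc15 of mitochondria lower (log2 fold changes -1.96 and -1.63) and Hspa2, Dnajb2 and Cct7 higher by 4.13, 2.81 and 1.66.

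None of the immediate early genes fell, and 10 of 18 measured members rose and 8 did not pass (median 1.19, and 16 higher and 0 lower with total count). Egr2 had 1 count over the FR and 85 over the FFPE libraries (scaled ratio 238, interval 41.5 to 9502), and Fosl1 had 0 to 2.07 in FR and 8.15 to 48 in FFPE scaled CPM. Zfp36, the member with the most counts, had 169, 286 and 554 scaled CPM in FR and 129, 187 and 319 scaled CPM in FFPE and did not pass (log2 fold change -0.71 ± 0.36, adjusted p = 0.0715, edgeR). Of the p53 targets and DNA damage genes, 11 of 22 measured members rose, 6 fell and 5 did not pass (median 1.29, and 16 higher and 0 lower with total count). Xrcc1 of single-strand break repair, Phlda3 and Gadd45b rose by 5.32, 5.0 and 3.36, and Ei24, Rrm2b and Pcna, the sliding clamp of replication, fell (log2 fold changes -2.49, -1.97 and -1.93). Of the Nrf2 targets and antioxidants, 5 of 22 measured members rose, 11 fell and 6 did not pass (median -1.01, and 10 higher and 0 lower with total count). Nfe2l2, which encodes Nrf2 itself, and the superoxide dismutases Sod1 and Sod2 fell (log2 fold changes -2.19, -2.02 and -1.93), as did Cat, catalase (-1.06 ± 0.23), a call that ended when FFPE 82 or FR 68 was left out and that turned to 0.50 under total count scaling. Abcc4, Sod3, the extracellular dismutase, and Gpx2 rose by 2.74, 2.54 and 1.97.

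Of the cytokines and chemokines, 23 of 30 measured members rose, 1 fell and 6 did not pass (median 3.12, and 29 higher and 0 lower with total count), with a median level of 2.02 scaled CPM in FR and 17.4 in FFPE. The fold changes of its members less the median of their level class had a median of 0.04. Members with no count or 1 count over the FR libraries could enter the test only through the embedded libraries. Il11 and Il20 had no FR count and were at least 59.7-fold and 42.9-fold higher, Ifnb1, interferon beta, had 1 count over the FR and 76 over the FFPE libraries (scaled ratio 213, interval 37 to 8507), and Cxcl12, the only fall, had 329, 380 and 430.2 scaled CPM in FR and 68.2, 100.0 and 127 scaled CPM in FFPE (log2 fold change -1.93 ± 0.20 SE, adjusted p = 4.57e-09). Of the cell cycle genes, 19 of 35 measured members rose, 4 fell and 12 did not pass (median 1.55, and 30 higher and 0 lower with total count), with rises of Kif11, at least 47.6-fold from no FR count, Cdk2 (4.27 ± 0.28) and Cdc45 (4.06 ± 0.38) and falls of Tyms, Mcm2 and Rb1 (log2 fold changes -1.85, -1.70 and -1.32). Cdc20, with the most counts, overlapped between groups at 187 to 296 in FR and 101 to 231 in FFPE scaled CPM.

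Of the nuclear receptors, 12 of 22 measured members rose, 2 fell and 8 did not pass (median 1.03, and 20 higher and 0 lower with total count). Rxra, the partner of most hepatic receptors, fell and had 596, 752 and 858 scaled CPM in FR and 90.9, 172 and 258 scaled CPM in FFPE (log2 fold change -2.04 ± 0.22 SE, adjusted p = 5.28e-09), Esr1 fell (log2 fold change -1.47), and Nr2f6 rose by 5.95. Pgr, the progesterone receptor, rose with 3 counts over the FR and 59 over the FFPE libraries (scaled ratio 55, interval 17.9 to 274), and Nr0b1 with 1 count over the FR and 28 over the FFPE libraries (scaled ratio 78.3, interval 13 to 3203). Of the apoptosis genes, 8 of 19 measured members rose, 2 fell and 9 did not pass (median 0.40, and 17 higher and 0 lower with total count), with rises of Bcl2 (4.26 ± 0.49), Faslg (3.37 ± 0.56) and Cflar, an inhibitor of caspase 8 that had 5.86, 7.22 and 12 scaled CPM in FR and 39.5, 44.9 and 50.6 scaled CPM in FFPE (log2 fold change 2.49 ± 0.22 SE, adjusted p = 3.56e-10), a fall of Xiap, a caspase inhibitor (-1.15 ± 0.33), and no pass for Cycs, cytochrome c (0.40 ± 0.19). Of 7 histone genes, 3 rose, 1 fell and 3 did not pass (median 0.84, and 6 higher and 0 lower with total count). H2afx, the histone phosphorylated at DNA breaks, had 5.81, 8.05 and 10.8 scaled CPM in FR and 62, 65.4 and 76.1 scaled CPM in FFPE (log2 fold change 3.0 ± 0.21 SE, adjusted p = 9.32e-12) and a mean of 10.2 in FR > FFPE, Hist1h2bd and Hist1h2ail1, which have close copies, rose by 4.37 and 2.82, and H2afz fell (log2 fold change -1.70). Hist2h3c2 had 436 to 725 in FR and 469.5 to 929 in FFPE scaled CPM and did not pass.

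Hepatocyte and red cell markers had lower sums in FFPE and T and NK cell, B cell and cholangiocyte markers higher sums, under TMM and under total count scaling, whereas the order of the Kupffer cell sums turned with the scaling. T and NK cell, B cell and cholangiocyte markers were low in FR, with median log2 fold changes of 3.12, 4.00 and 1.66. Over all genes tested, the medians were 5.66 under 1 scaled CPM in FR, 2.91 at 1 to 3 and 1.77 at 3 to 10. Genes this low entered in part through the embedded libraries, and total count scaling raises FFPE further. Their higher sums are therefore not read as a result about these cells. Hepatocyte markers and erythroid and platelet markers had median log2 fold changes of -1.38 and -1.40. Over all genes above 1000 scaled CPM in FR, the median was -1.82. The lower sums are likewise not read as a result about those cells. Unless stated, sums are of scaled CPM per library. The 13 hepatocyte markers measured summed to 398376 to 524423 in FR and 42907 to 144420 in FFPE, with 8 lower and none higher. Alb by itself had 225655 to 306720 in FR and 24446 to 90473 in FFPE, so the sum rests largely on it. Erythroid and platelet markers, 4 measured, summed to 6981 to 24972 in FR and 701 to 1074 in FFPE, 3 of them lower, Hbb taking most of the sum. Kupffer cell and macrophage markers summed to 752 to 954 in FR and 432 to 671 in FFPE, with 3 of 8 lower and 1 higher. Sums of the 9 stellate cell and fibroblast markers overlapped, at 651 to 1034 in FR and 618 to 1062 in FFPE, as did those of 4 endothelial markers, at 346 to 537 in FR and 263 to 414 in FFPE, and of 3 neutrophil markers, at 69.9 to 251 in FR and 48.4 to 90.9 in FFPE. Sums of T and NK cell markers, all 6 higher, were 12.9 to 25.8 in FR and 73.9 to 212 in FFPE, those of 4 cholangiocyte markers, 3 of them higher, 6.94 to 22.7 in FR and 34.2 to 60.3 in FFPE and those of 2 B cell markers, both higher, 2.85 to 9.38 in FR and 33.6 to 75.8 in FFPE. Under total count scaling, with sums in CPM of total counts, an alternative added after seeing the data, Kupffer cell and macrophage sums were higher in FFPE, at 426 to 578 in FR and 783 to 1493 in FFPE. The sums of stellate cell and fibroblast markers (392 to 626 in FR and 1434 to 1759 in FFPE) and of endothelial markers (196 to 302 in FR and 506 to 747 in FFPE) then no longer overlapped and were also higher in FFPE, while those of neutrophil markers still overlapped (42 to 140.4 in FR and 83.8 to 258 in FFPE). Hepatocyte sums were 241153 to 296979 in FR and 122034 to 195063 in FFPE under that scaling, with 3 markers higher and 2 lower. Adipoq, the only measured marker of adipocytes, had 0 to 1.58 in FR and 2.52 to 16.3 in FFPE, and Gzmb of the T and NK list had no FR count. The part of cell content in any result was not tested.

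FFPE vs. FR > FFPE set tissue fixed fresh against tissue frozen before the same fixation. Depth differed with the freezing step, at 139477 to 889125 counts in FFPE and 2156621 to 3898086 in FR > FFPE. At full depth the 2 cannot be told apart. The comparison gave 778 DEGs, 34.1% of genes tested, 529 higher (23.2%) and 249 lower (10.9%) in FFPE. With all libraries thinned to 139477 counts, 201 of 967 genes tested passed, 117 higher and 84 lower. Under total count scaling the split was 1076 higher and 30 lower. Between FR > FFPE and FR, 1138 genes passed (49.9%), of which 767 were higher and 371 lower in FR > FFPE. The 3 comparisons share libraries, so their values are only set side by side. Against FR > FFPE, 9 of 16 plasma proteins and 8 of 18 conjugation enzymes were lower in FFPE, with 0 and 1 higher, and 13 of 30 cytokines and chemokines were higher and 2 lower. Cyp3a2, Crp, Slc10a1 and Fn1 were lower in FFPE than in FR > FFPE, with log2 fold changes of -2.61, -2.37, -2.44 and -2.17, and Fn1 had a FR > FFPE mean of 1197 scaled CPM beside 1299 in FR. Hspd1, Sdhb, Psmg1 and Me1, by contrast, differed by -0.13 ± 0.19, -0.08 ± 0.22, 0.01 ± 0.22 and -0.27 ± 0.29 between the embedded groups and did not pass, while each was lower in FFPE than in FR.

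Control mouse liver of the series was measured by RNA-seq in 6 FFPE and 6 FR libraries, and its values are set beside those of the rat. That comparison gave 1149 DEGs of 11951 genes, 9.61%, 539 higher and 610 lower, and 1239 higher and 219 lower under total count scaling. For 1620 genes of the same symbol tested in both, the median size of the log2 fold change was 1.27 in rat and 0.398 in mouse, with different assays, depths and gene selections. Of these, 957 passed in rat and 160 in mouse, and of the 113 that passed in both, 91 had the same direction. Serpinc1, Serpina6, Cp, Hspa5 and Alb, for example, had mouse log2 fold changes of -1.55, -1.03, -1.33, -1.33 and -1.56 beside -3.42, -4.03, -3.36, -3.39 and -2.36 in rat. Gjb1, Mafk and Ptpn6 had -0.31, 0.43 and -0.37 in mouse. By level in frozen mouse liver, the mouse medians were -0.08 for genes at 1 to 10 CPM and -1.12 over 1000 CPM, beside 0.89 and -1.78 in rat.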

How the data were processed

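Rat liver libraries were made with the TempO-Seq S1500+ rat panel and read on an Illumina NextSeq. The authors deposited estimated counts per gene for all annotated genes, with coordinates that go with the rat build rn6 of the submitters' processing notes, which also list CASAVA 1.8.2, STAR 2.5.3a and Partek; 99.1% of the estimated counts were whole, and all were rounded. The authors also deposited a log2 table of CPM, used only as an alternative. The counting setting and detector sequences were not given in the sources used here, and no sequence is printed. Of 28756 genes, 2652 had a count. Estimated counts of mouse liver were treated in the same way; the 6 mouse pairs came from the same mice, with correlations of deviations of at least 0.338.

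edgeR 4.0.16 in R 4.3.3 (filterByExpr with a count minimum of 10, TMM, quasi-likelihood test, 3 group means over 18 libraries, Benjamini-Hochberg adjustment over all genes tested) gave fold changes, their SE as the log2 fold change over the square root of F, and calls at adjusted p under 0.05 and fold change of at least 2. Levels are TMM-scaled CPM. A group at 0 was bounded with 3 counts over the group; intervals and floors cover counting error only. Detection and count shares were compared with exact permutation tests. Alternatives were other scalings, DESeq2 1.42.0, limma 3.58.1 on the log2 table, other filters, 12 libraries alone, thinning (seeded) and leaving out each library. Python 3.11.15 was used for summaries. Named genes were the 12 largest rises and falls among DEGs at 50 scaled CPM or more without overlap, up to 3 rises and 3 falls and the member with the most counts of each of 26 function lists, and the 10 genes with the most FR counts. Of 161 genes so chosen or added, 7 are not reported here. Members, lists and tests were chosen with earlier results of these data known. The scripts were tested on simulated data. Animals, cultures and batches behind the libraries were not given.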

Additional observations from a re-analysis of the deposited data

Results flagged for a closer look

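Of 314 sets of 6 libraries examined, 23 held 1 library whose gap to the nearest of the others exceeded the limit for 6 samples, and chance flags about 1 set in 20. FFPE 82, the shallowest library, accounted for 7 of them. In FFPE 82, Fga was 10592 scaled CPM, against 23887 to 29612 in the other 5 FFPE libraries. Fgg was 6372 there, against 14282 to 17264. Fstl1 was 447 there, against 219 to 295. Ifnb1 was 37.9 there, against 11.5 to 19.2. Orm1 was 1903 there, against 3655 to 4301. RT1-A2 was 126 there, against 35.8 to 64.9. Its 10 highest genes took 29% of the counts, against 35.9% to 40.03% in the other 5.

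Among the other FFPE and FR libraries, the following values stood apart from the other 5 of their group. Abcc4 was 27.7 scaled CPM in FFPE 84, against 6.37 to 12.4. Atf4 was 287 scaled CPM in FR 68, against 191 to 206. Atf5 was 98.5 scaled CPM in FR 70, against 47.5 to 66.2. C1r was 16.7 scaled CPM in FR 70, against 6.21 to 9.98. Echs1 was 0 scaled CPM in FFPE 80, against 1.63 to 2.55. H2afz was 338 scaled CPM in FR 72, against 247 to 275. Lcn2 was 8.95 scaled CPM in FFPE 79, against 20.2 to 25.9. Maff was 2.93 scaled CPM in FR 68, against 0.528 to 1.04. Pklr was 225 scaled CPM in FR 70, against 68.1 to 96.1. Rrm2b was 256 scaled CPM in FR 68, against 204 to 223. Slc25a24 was 5.55 scaled CPM in FR 70, against 0 to 1.72. In 5 further cases 1 FR library held a count and the other 5 held none. Abcg8 was 0.586 scaled CPM in FR 68. Cyp24a1 was 0.528 scaled CPM in FR 67. Egr2 was 0.463 scaled CPM in FR 70. Ifnb1 was 0.430 scaled CPM in FR 69. Nr0b1 was 0.475 scaled CPM in FR 71.

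Gstp1 and Rps27l moved in opposite directions in the 2 species with no overlap of libraries in either, a difference that was not tested. Gstp1, a glutathione transferase, had a log2 fold change of FFPE vs. FR of 2.21 in rat and -1.25 in mouse. Rps27l, the p53-regulated ribosomal paralog, had 1.55 in rat and -1.80 in mouse.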

How the results depend on the processing

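FFPE vs. FR gave 1427 to 1514 DEGs with any 1 library left out and FFPE vs. FR > FFPE 691 to 859, and the other counts stayed within 1.5 times except after thinning to 139477 counts, where 967 genes could be tested and 433 and 201 passed, and with adjusted p alone, where FFPE vs. FR > FFPE gave 1228. Leaving out FR > FFPE libraries was added after seeing the data. The median log2 fold change of FFPE vs. FR was 1.97 with total count, 0.48 with DESeq2 size factors, 0.95 with upper quartile, 0.48 with DESeq2, 1.57 with limma, 0.255 without a filter, 0.17 with the geometric mean filter, 0.25 with 12 libraries, 0.038 thinned and 0.334 to 0.364 with 1 library left out; fewer or other genes tested move it, and the scalings move it by construction. Differences in genes detected (695 to 736) and in the 10 highest genes (-13.1 to -10.9 percentage points) kept their direction and p under 0.05 with each library left out. Of 154 named genes, 11 DEGs turned positive, by construction of the scaling, under total count and under limma: Apoc1 0.077 and 0.086, Calr 0.45 and 0.46, Cat 0.50 and 0.51, Dnajc15 0.034 and 0.011, Eif2s1 0.23 and 0.23, Esr1 0.11 and 0.018, Fga 0.19 and 0.20, Pygl 0.11 and 0.11, Rb1 0.26 and 0.25, Rpl6 0.026 and 0.028, Xiap 0.36 and 0.21. Over the settings of the named genes, 2991 values kept their direction and side of the threshold, 108 no longer passed and 13 newly passed. With thinning, the median relative to all genes became 0.46 for unfolded protein and -0.51 for p53 genes. No paired analysis was possible because the FFPE and FR rat libraries share no number; in mouse, the replicate block gave 1167 DEGs in place of 1149, and total count 1458. The low depth of FFPE limits genes under about 10 scaled CPM.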

Other observations

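Under TMM, markers of stellate cells and fibroblasts did not overlap between the embedded groups. Their 9 measured members summed to 1419.6 to 3939.9 scaled CPM in FR > FFPE, above every FR library (651 to 1034) and every FFPE library (618 to 1062). Under total count scaling these sums overlapped, at 1104 to 4675 CPM in FR > FFPE and 1434 to 1759 in FFPE. Neutrophil markers, of which 3 were measured, summed to 35.4 to 81.1 in FR > FFPE, within or below the range of FR.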
